A study of Homo sapiens with 2 samples.

Results

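The BCL2 family decides whether a blood cell survives or dies by the mitochondrial route. The 10 genes described here were chosen by name as its best known members: the survival genes BCL2L1, BCL2 and MCL1, the BH3-only genes BCL2L11, BBC3, BAD, BID and PMAIP1, and the effector genes BAK1 and BAX. They were 10 of 19974 protein-coding genes on chromosomes 1 to 22 and X (RefSeq, GRCh38.p14). The peaks came from F36P, a human erythroleukaemia cell line. Its cells carried MSCV-PIG-AM-ERG, a retroviral vector for ERG with an AM tag (group AM-ERG), or the empty MSCV-PIG plasmid (group Vector), with 1 ChIP library in each group. Both groups were under puromycin (1 µg/ml, 4 days), and an antibody to the tag was used on both. ERG is an ETS-family transcription factor, here overexpressed from a vector, and the stated aim was to learn how it holds back erythroid differentiation. A single list of 1645 peaks was analysed. The list is named for ERG peak calling. Beyond that name, the labels and the file do not say which library it describes or against which control it was called. With no replicates, no value below has a replicate error, and no comparison between AM-ERG and Vector could be made. A peak list holds no expression, so neither the cell line's identity nor the level of any of these genes' RNA could be checked.

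In healthy cells the survival proteins hold the effectors BAX and BAK in check. BH3-only proteins are switched on by stress, DNA damage or loss of growth factor, bind the survival proteins or the effectors, and so free the effectors to open the outer mitochondrial membrane. In the red cell lineage BCL-XL, the long product of BCL2L1, is the survival protein known to act downstream of the erythropoietin receptor.

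Peaks were listed at 1 of the 3 survival genes, at 3 of the 5 BH3-only genes and at neither effector gene. A gene was counted when a peak's summit, its point of highest enrichment, lay inside it or no more than 15 kb from either end. BCL2L1 and BAD had 2 peaks each, and BBC3 and BID had 1 each. That made 4 of 10 genes, where 10.8% of all coding genes (2150 of 19974) had a peak by the same measure; no test was made of this difference, because the genes were picked with earlier results of these data known. The median distance from gene to nearest summit was 251 kb over the 10 genes and 412 kb over all coding genes. Closest inside the window limit was BBC3 at 11.4 kb, and closest outside it was a further peak of the BBC3 region at 23.5 kb. Counted by start sites instead, 1 of the 9 genes with an annotated start in the promoter table, BCL2L1, had a summit within 1 kb of one, against 6.41% of coding genes with such an entry (1013 of 15813).

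**Figure D1:**
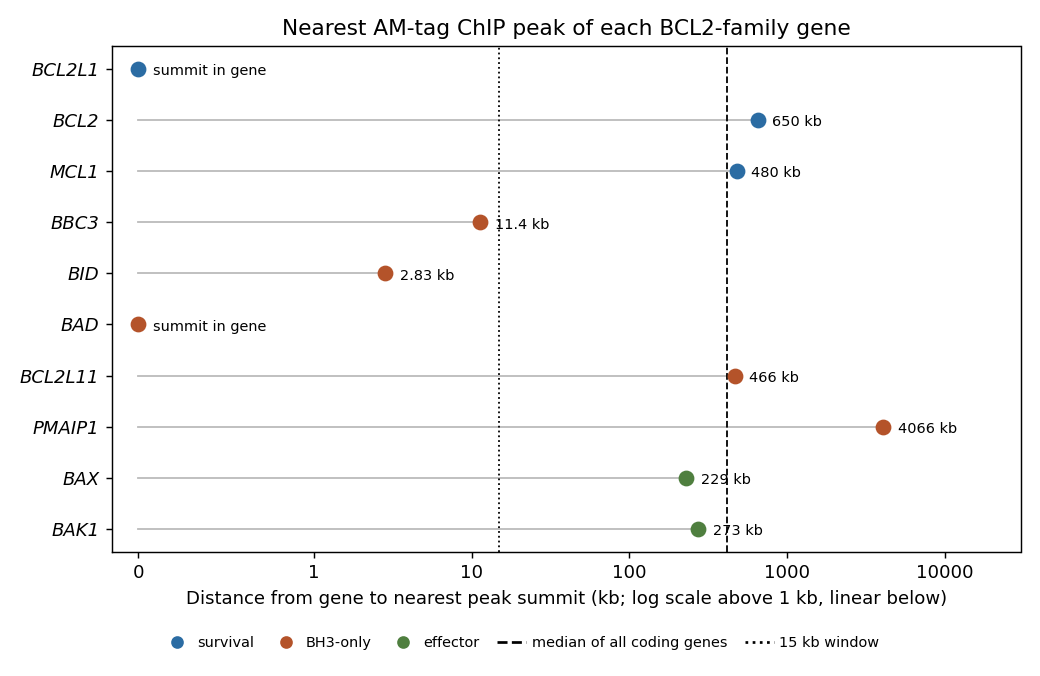
Distance in kb from each of the 10 genes to its nearest peak summit (x axis, logarithmic above 1 kb), with 0 for a summit inside the gene; points are coloured by the protein's role, the dotted line is the 15 kb window and the dashed line the median of all coding genes (412 kb). BCL2L1, BAD, BID and BBC3 lie inside the window, and the other 6 genes are 229 to 4066 kb from a summit.

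BCL2L1 held a peak at its first start site and another deep inside the gene. The gene lies on the minus strand of chromosome 20, chr20:31664452-31723963, 59512 bp. The first peak, chr20:31723336-31723987, was 652 bp wide, with its summit 166 bp downstream of the outermost annotated start and 929 bp upstream of the other. Its fold enrichment (the authors' ratio of signal to local background at the summit) was 9.99, its −log10 p was 25.4 and its −log10 q was 20.2, so that it ranked 35 by fold among the 1645 peaks. The second peak, chr20:31675154-31675874, was 721 bp wide, with its summit 48.3 kb downstream of the outermost start and 11.2 kb short of the gene's other end. Its fold was 5.40, its −log10 p was 15.3 and its −log10 q was 10.7, rank 507 by fold. That summit also lay inside BCL2L1-AS1, a long noncoding RNA gene (lncRNA), 537 bp from that gene's lower-coordinate end.

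In the recovered values, the difference in fold between the BCL2L1 peaks lay in the background and not in the height. Both summits had a recovered pileup of 31 fragments (exact 95% Poisson interval 21.1 to 44.0; such intervals cover counting error only). The local background was 2.20 fragments at the start site and 4.93 at the internal peak. No interval was worked out for these low backgrounds, so their counting error is not known. The fold was thus 1.85 times higher at the start site with the same number of fragments.

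The promoter of the outermost BCL2L1 start is shown because the stronger peak reaches into it. The window runs from 250 bases before to 50 bases after the start (chr20:31723914-31724213, minus strand, RefSeq, GRCh38.p14), and its last 74 bases lay inside the peak. Capitals mark the letters GGAAGT on either strand, with CC before them where the longer form CCGGAAGT occurs; both hold the GGAA core that ETS proteins recognise.
BCL2L1 promoter: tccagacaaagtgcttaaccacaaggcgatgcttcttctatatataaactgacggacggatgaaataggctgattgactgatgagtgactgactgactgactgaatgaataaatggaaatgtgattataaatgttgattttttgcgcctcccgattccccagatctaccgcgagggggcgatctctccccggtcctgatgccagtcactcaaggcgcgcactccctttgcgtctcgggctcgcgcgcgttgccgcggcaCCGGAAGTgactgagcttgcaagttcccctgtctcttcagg
The window held CCGGAAGT 1 time, beginning 9 bp past the start, inside the peak and 154 bp from its summit. Of all 35116 promoter windows of this length in the table, 4.14% held CCGGAAGT on either strand. The window at the other BCL2L1 start, 929 bp beyond the summit, held neither form and had no base in a peak.

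BBC3, which encodes PUMA, a BH3-only protein induced by DNA damage, had the strongest peak near any of the 10 genes, and that peak lay outside the gene. BBC3 is on the minus strand at chr19:47220824-47232860. The peak, chr19:47243708-47244440, was 733 bp wide, with a fold of 11.8, a −log10 p of 55.8 and a −log10 q of 49.6; it ranked 13 by fold and 15 by q among the 1645 peaks. Its recovered pileup was 72 fragments (exact Poisson interval 56.3 to 90.7) over a background of 5.17. The summit was 11.6 kb upstream of the annotated BBC3 start and 50 bp upstream of the start of LOC124904731, a lncRNA gene on the same strand between the peak and BBC3. The peak therefore lay at the start of another annotated gene, and nothing in these data ties it to BBC3 other than distance.

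Farther upstream of BBC3, outside the 15 kb window, stood 2 more peaks. The nearer, chr19:47256008-47256631, had a fold of 8.73, a −log10 q of 21.5 and a pileup of 38 fragments, and its summit was 213 bp upstream of the start of CCDC9, a coding gene on the plus strand. The farther, chr19:47273278-47273979, had a fold of 3.77 and a −log10 q of 4.73, with its summit 493 bp upstream of a start of INAFM1. These summits were 23.5 and 41.1 kb from BBC3, and all 3 peaks lay within 500 bp of the start of some annotated gene. In all, 7 summits lay in BBC3 or within 500 kb of it, more than for any other of the 10 genes (0 to 4). The median over all coding genes was 1 (0 to 23), and chromosome 19 had 11.6 peaks per 100 coding genes, against 7.83 over all chromosomes used.

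The promoters at the first pair of these peaks are shown because the peaks cover them, 295 of 300 bases for LOC124904731 (chr19:47244146-47244445, minus strand) and 300 of 300 for CCDC9 (chr19:47256275-47256574, plus strand). Capitals are as above.
LOC124904731 promoter: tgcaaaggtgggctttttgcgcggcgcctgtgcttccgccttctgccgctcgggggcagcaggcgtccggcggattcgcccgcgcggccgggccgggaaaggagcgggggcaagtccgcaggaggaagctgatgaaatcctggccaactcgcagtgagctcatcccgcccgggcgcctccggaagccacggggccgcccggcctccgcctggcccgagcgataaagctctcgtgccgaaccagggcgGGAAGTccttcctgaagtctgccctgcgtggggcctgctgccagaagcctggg
CCDC9 promoter: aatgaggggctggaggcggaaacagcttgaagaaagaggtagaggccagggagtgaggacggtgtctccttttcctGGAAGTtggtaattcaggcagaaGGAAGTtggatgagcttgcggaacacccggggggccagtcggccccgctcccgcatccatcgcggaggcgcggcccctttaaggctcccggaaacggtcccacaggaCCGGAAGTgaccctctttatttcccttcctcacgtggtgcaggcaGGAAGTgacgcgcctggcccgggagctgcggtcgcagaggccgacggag
The LOC124904731 window held GGAAGT 1 time, 49 bp from the summit, and did not hold CCGGAAGT. The CCDC9 window held GGAAGT 4 times, at 42, 65, 174 and 217 bp from its summit, and 1 of these was part of CCGGAAGT. GGAAGT was found in 22.8% of all promoter windows. The promoter window of BBC3 itself (chr19:47232618-47232917) also held GGAAGT 1 time and had no base in a peak.

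BID, which links death receptors to the mitochondrial route once caspase-8 has cut it, had 1 peak of moderate strength upstream of the gene. BID lies on the minus strand at chr22:17734138-17774665, and the peak was chr22:17777305-17777630, 326 bp wide, the narrowest of the 6. Its summit was 2834 bp upstream of the outermost of 5 annotated BID starts. The fold was 6.06, the −log10 p 12.1 and the −log10 q 7.73, rank 342 by fold. The pileup was 19 fragments (exact Poisson interval 11.4 to 29.7) over a background of 2.30. The summit lay inside LINC00528, a lncRNA gene, 209 bp from that gene's lower-coordinate end. None of the 5 promoter windows of BID had a base in a peak, and none held GGAAGT.

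BAD, which encodes a BH3-only protein that growth factor signalling keeps inactive by phosphorylation, had 2 weaker peaks, both at the end of the gene opposite to its start. BAD lies on the minus strand at chr11:64269828-64284704, with annotated starts at 64284704 and 64284665. The stronger peak, chr11:64270100-64270733, had a fold of 5.62, a −log10 p of 11.7, a −log10 q of 7.31 and a pileup of 20 fragments (exact Poisson interval 12.2 to 30.9) over 2.74. Its summit was inside BAD, 416 bp from the gene's 3′ end and 14.4 kb from the nearer of the starts. The weaker peak, chr11:64269216-64269677, had a fold of 4.20, a −log10 p of 8.15, a −log10 q of 4.18 and a pileup of 18 fragments over 3.52, with its summit 303 bp outside BAD. The summits were 719 bp apart.

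The BAD peaks were closer to the ends of neighbouring genes than to a BAD start. The stronger summit was 287 bp upstream of a start of GPR137, which runs on the plus strand across BAD, and 792 bp past the 3′ end of PLCB3. The weaker summit was 73 bp past the 3′ end of PLCB3 and 1006 bp upstream of the same GPR137 start. All 300 bases of this GPR137 promoter window (chr11:64270281-64270580, plus strand) lay inside the stronger peak, while neither BAD window had a base in a peak. It is shown for that reason, with capitals as above.
GPR137 promoter: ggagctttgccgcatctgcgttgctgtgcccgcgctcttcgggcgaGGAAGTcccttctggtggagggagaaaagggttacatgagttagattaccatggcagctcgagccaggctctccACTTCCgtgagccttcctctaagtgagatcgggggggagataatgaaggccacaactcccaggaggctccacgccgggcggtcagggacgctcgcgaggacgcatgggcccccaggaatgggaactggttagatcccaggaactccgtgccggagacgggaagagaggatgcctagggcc
The window held GGAAGT 2 times, at 86 and 160 bp from the summit, and did not hold CCGGAAGT. The BAD windows held neither.

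**Figure D2:**
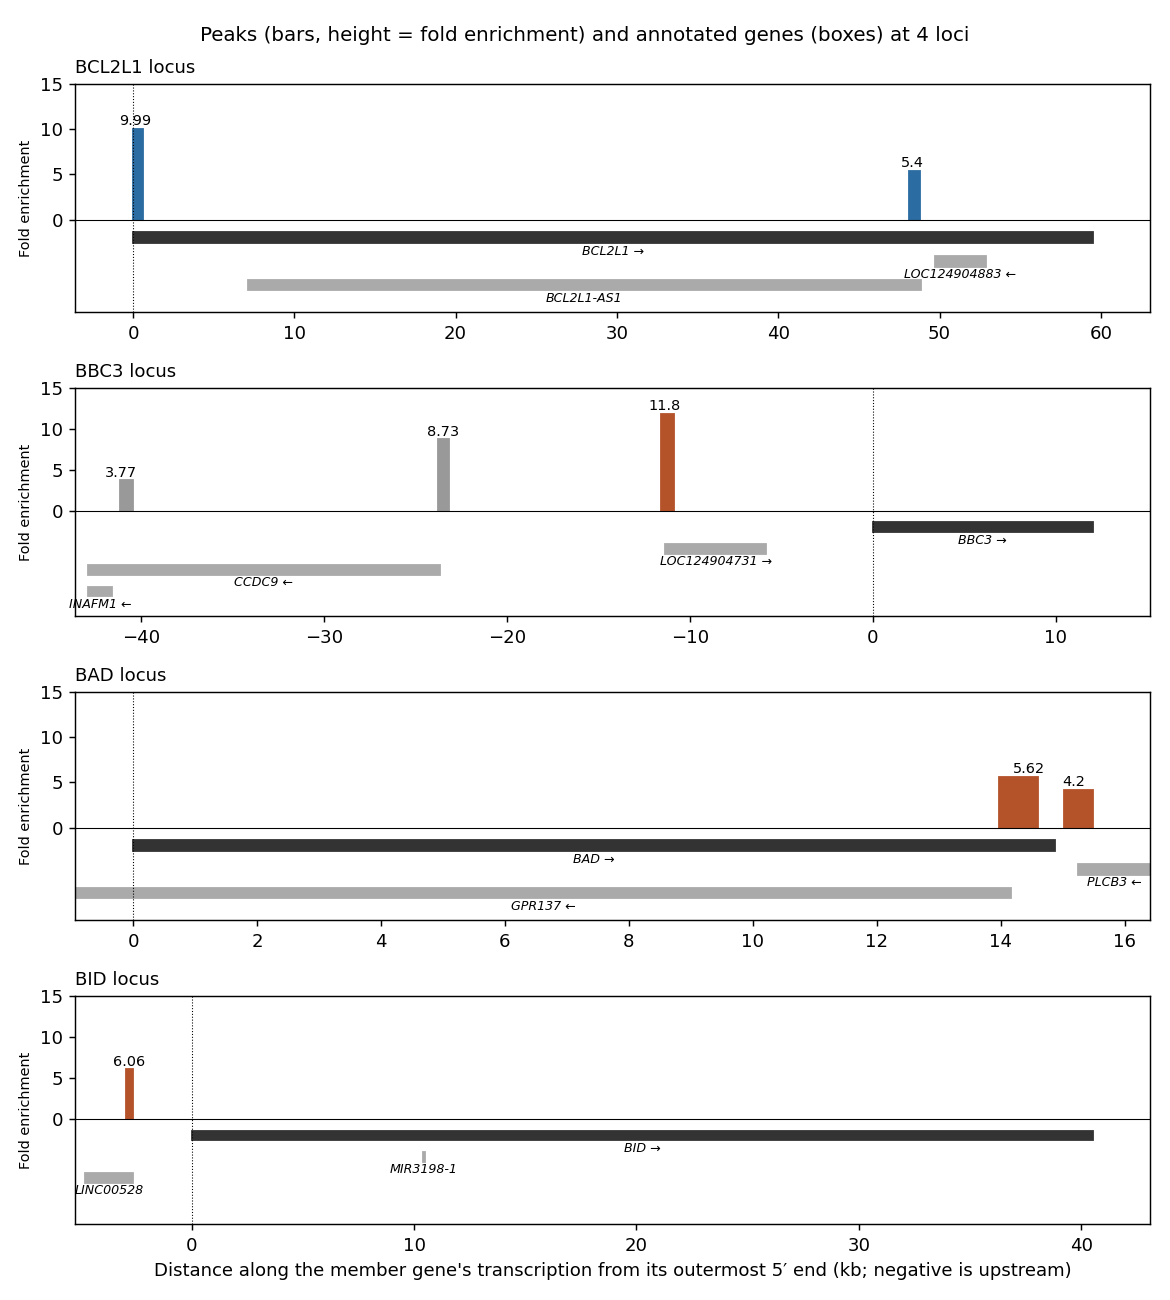
Peaks at the 4 loci as bars from start to end whose height is the fold enrichment, with gene boxes beneath (arrows give direction; no arrow where no strand was given); the x axis is distance in kb along transcription of BCL2L1, BBC3, BAD or BID from its outermost 5′ end. Coloured bars are inside the 15 kb window and grey bars outside; only BCL2L1 has a bar at its own start, and the BBC3 bar of 11.8 sits at the start of LOC124904731.

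Side by side, by fold, the peaks fell into a stronger set at BBC3 and the BCL2L1 start and a weaker set at the other positions. The pileups were 72 fragments at BBC3, 31 at each BCL2L1 peak and 18 to 20 at the BID and BAD peaks, where the median over all 1645 peaks was 21 (10 to 3977). The interval at BBC3 (56.3 to 90.7) did not overlap those of the other 5 peaks, and those 5 intervals overlapped one another. Backgrounds were 2.20 to 5.17 fragments, at most 1.47 times the median of 3.52. By fold, 5 of the 6 peaks were above the median of all peaks (4.62), and the weaker BAD peak (4.20) was below it. Of the 6 summits, the nearest start site in the promoter table was the gene's own for 2 (the first BCL2L1 peak and BID). It was GPR137's for both BAD peaks and LOC124904731's for BBC3. For the internal BCL2L1 peak it was that of LOC124904883, another lncRNA gene, 4540 bp away. BCL2L1-AS1 and LINC00528 had no entry in the promoter table, so their starts could not be counted. The internal BCL2L1 summit lay 537 bp from an end of BCL2L1-AS1, and the BID summit 209 bp from an end of LINC00528. Whether either end is a start was not given.

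**Figure D3:**
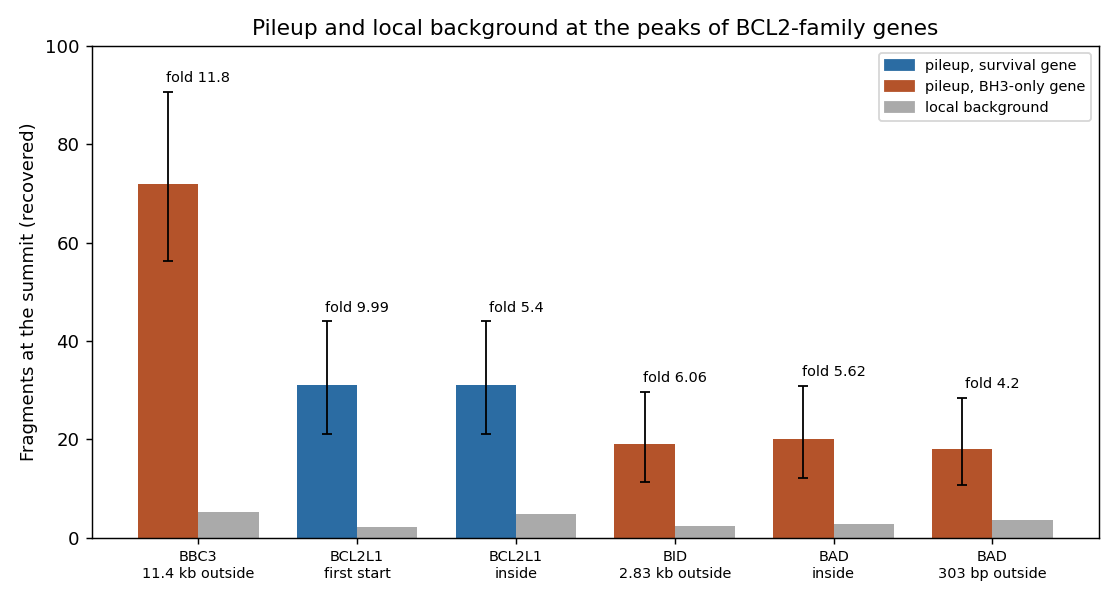
Fragments at the summit of each of the 6 peaks (coloured bars, recovered pileup with exact 95% Poisson intervals for counting error) beside the local background in fragments (grey bars). The BCL2L1 bars are both at 31 with backgrounds of 2.20 and 4.93, and the BBC3 bar is highest at 72.

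**Figure D4:**
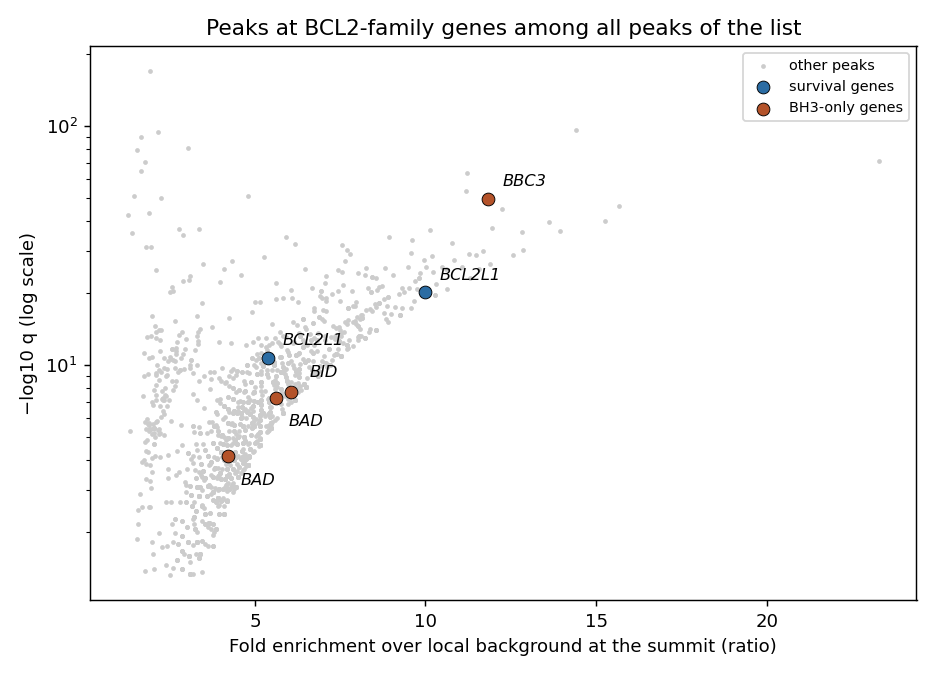
Fold enrichment (x axis, ratio) against −log10 q (y axis, log scale) for all 1645 peaks in grey, with the 6 peaks of the BCL2-family genes in colour. BBC3 (fold 11.8) and the start site of BCL2L1 (9.99) lie toward the upper right, and the BAD and BID peaks (4.20 to 6.06) lie in the dense part of the cloud.

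No peak was listed in or near the other 2 survival genes. BCL2, the founding survival gene, is the longest of the 10 at 196745 bp (chr18:63123346-63320090), and its nearest summit was 650 kb away, in SERPINB8. MCL1, a survival gene whose protein is short-lived (chr1:150574558-150579610), had its nearest summit 480 kb away in CDC42SE1, with a fold of 8.02. Both distances were above the median of coding genes (412 kb): 59.4% of coding genes had a summit nearer than BCL2 and 53.1% nearer than MCL1.

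Among the BH3-only genes, BCL2L11 and PMAIP1 had no peak. BCL2L11, which encodes BIM, a protein that rises when growth factor is lost (chr2:111120914-111168445), was 466 kb from the nearest summit, with a fold of 5.14. PMAIP1, which encodes NOXA, a partner of MCL1 (chr18:59899996-59904305), was 4066 kb from it, the farthest of the 10, with 90.9% of coding genes nearer to a summit. The nearest peak of PMAIP1 was the same SERPINB8 peak as that of BCL2 (chr18:63970347-63970741, fold 5.14). Chromosome 18 had 22 peaks, or 8.15 per 100 coding genes, against 7.83 over all chromosomes used.

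Neither effector gene had a peak. BAX (chr19:48954875-48961798) was 229 kb from the nearest summit, in RASIP1 (fold 4.21), and BAK1 (chr6:33572552-33580276) was 273 kb from one in RGL2 (fold 4.79). Between gene and summit lay 10 other coding genes for BAX and 9 for BAK1. For both, the distance was below the median of coding genes, with 37.9% and 41.2% of coding genes nearer. Within 500 kb, BAX had 2 summits, BAK1, BCL2L11 and MCL1 had 1 each, and BCL2 and PMAIP1 had 0.

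Letters that ETS proteins can read were present in promoters without a peak as well. Promoter windows were found for 9 of the 10 genes (all but MCL1), 15 windows in all. GGAAGT occurred in 4 of the 15 windows, of BCL2L1, BBC3, BAK1 and PMAIP1 (22.8% of all windows). CCGGAAGT occurred in 1 of the 15, of BCL2L1 (4.14% of all windows). The PMAIP1 window (chr18:59899746-59900045, plus strand) is shown because it held GGAAGT 3 times, more than any other window of the 10 genes, with no peak within 4066 kb.
PMAIP1 promoter: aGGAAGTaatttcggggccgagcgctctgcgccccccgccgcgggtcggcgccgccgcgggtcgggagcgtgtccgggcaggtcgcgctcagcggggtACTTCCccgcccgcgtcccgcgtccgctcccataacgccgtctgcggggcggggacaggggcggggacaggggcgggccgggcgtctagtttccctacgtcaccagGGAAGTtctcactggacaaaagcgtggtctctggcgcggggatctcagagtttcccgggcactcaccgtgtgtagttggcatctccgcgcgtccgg
Of the other motifs searched on both strands, AGATAA, read by GATA factors, occurred in 0 of the 15 windows (10.3% of all windows), and TGTGGT, read by RUNX factors, in 2, of BCL2 and BCL2L1 (13.1% of all windows). CANNTG, the E-box, occurred in 6 of the 15 (68.7% of all windows), and GGGCGG, read by SP and KLF factors, in 11 (45.0%). Among the 252 windows wholly inside a peak, 30.6% held CCGGAAGT, 57.5% GGAAGT and 79.0% GGGCGG, and among the 34016 windows with no base in a peak the shares were 3.48, 21.9 and 44.0%. The other letters were found less often inside peaks: AGATAA in 4.37% of windows against 10.6%, TGTGGT in 9.13% against 13.2% and CANNTG in 57.9% against 69.1%. The windows inside peaks also had a median GC content of 69.3% against 58.3%, and the part of GC content in these shares was not tested. GGAAGT counts include those within CCGGAAGT, windows of nearby starts overlap, and a match is a run of letters only.

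The wider set of survival and death genes had peaks at 11 of 61 (18.0%), where 10.8% of all coding genes did. The median distance to the nearest summit was 164 kb, and 412 kb over all coding genes. Among 13 further BCL2-family genes 2 had a peak, among 20 genes of the mitochondrial death pathway 3, among 12 death receptor genes 2, and among 16 genes acting upstream of BCL2 proteins 4. These lists were also drawn up with results known, and no test was made of them.

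The strongest of these peaks were at CFLAR and FAS, which act in the death receptor route. CFLAR encodes c-FLIP, an inhibitor of caspase-8. Its peak, chr2:201116419-201117119, had a fold of 9.38, a −log10 q of 20.1 and a pileup of 33 fragments over 2.62. The gene is on the plus strand, and the summit was 746 bp downstream of its outermost 5′ end. The nearest CFLAR start in the promoter table was 1806 bp downstream of the summit. The summit was also 226 bp upstream of the start of LOC105373836, a lncRNA gene on the minus strand. FAS encodes a death receptor. Its peak, chr10:88986489-88986915, had a fold of 7.88 and a −log10 q of 12.0, and its summit was 4088 bp upstream of the nearest FAS start in the promoter table, in a stretch that also belongs to ACTA2. CASP8, CASP10 and FADD, of the same route, had no peak in the window, with nearest summits 117, 66.2 and 191 kb away.

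At 4 of the 44 wider genes with a start in the promoter table, a summit lay within 1 kb of one, where 6.41% of coding genes with such an entry had one. PPP3CA was not among the 44. CFLAR was among them but not counted, because its outermost 5′ end, 746 bp from the summit, had no entry in that table. BAG1, which encodes a BCL2-binding cochaperone, had a fold of 5.995 with the summit 191 bp downstream of its start. DIABLO, which encodes SMAC, an antagonist of the inhibitor of apoptosis proteins, had a fold of 4.98 with the summit 119 bp downstream of a start. FOXO3, a factor that can induce BCL2L11 and BBC3, had 4.28 at 456 bp upstream of a start. BCL2L13, a BCL2-family protein of the outer mitochondrial membrane, had 4.13 at 76 bp upstream of one. Its peak, chr22:17638370-17638703, lay on the same chromosome as BID, beyond the opposite end of BID from the BID peak. The BAG1 summit was also 532 bp upstream of the start of CHMP5, a coding gene. The DIABLO summit was also 509 bp upstream of the start of LOC101593348, a lncRNA gene. It was 631 bp downstream of the start of LOC128125816, a coding gene.

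The remaining 5 wider genes were BIK, ENDOG, VDAC3, PPP3CA and YWHAZ, with folds of 2.86 to 5.74. The summit counted for BIK (fold 2.86) was 13.6 kb away and 68 bp from the start of MCAT, and that for ENDOG (5.74) was 6931 bp away and 187 bp from the start of SPOUT1. VDAC3 (5.46) was 6913 bp from its summit, which was nearer to SLC20A2, a coding gene, at 3625 bp. PPP3CA (3.76) had its summit 945 bp inside the gene's higher-coordinate end. The summit of YWHAZ (3.22), a gene with no start in the promoter table, was 1718 bp inside the gene's higher-coordinate end. Its local background of 9.86 fragments was 2.80 times the median. The apoptosome genes APAF1, CYCS and CASP9 had no peak in the window, nor did XIAP or MDM2.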

How the data were processed

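F36P cells of the AM-ERG and Vector groups each gave 1 AM-tag ChIP library. Per the labels' protocols, chromatin fixed with 1% formaldehyde was cut with micrococcal nuclease for 20 minutes. Per the submitters' processing notes, Bowtie2, MACS2 and deepTools were used with hg38. Their versions and parameters, and any removal of duplicate reads, were not stated in the labels. The deposited list gives, per peak, the authors' score, fold (a ratio), −log10 p-value and −log10 q-value, and a summit offset. The largest deposited q-value was 0.0474.

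Whole-number pileups and backgrounds at summits were recovered from fold, taken as (pileup + 1)/(background + 1), and the Poisson p. All 1645 p-values were returned within 0.001 in log10 (largest error 0.000834). On data simulated from the same formulas, 300 of 300 peaks were recovered. That checks the arithmetic only, and the simulated backgrounds did not reach the highest of the list. Read depth is unknown.

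Genes, strands, starts and promoters came from RefSeq tables (GRCh38.p14), matching 71 of 71 list genes. Distances to genes were taken from 1564 peaks, those of the autosomes and chromosome X. The genes named were all 10 members, wider-list genes with a peak in the window and genes sharing peaks with members; other names were chosen after their values were seen. Members and lists were chosen with earlier results of these data known. No test was made. Most genes of the wider lists without a peak are counted but not reported by name. Alternatives changed the window, peak threshold, overlap rule, background limit and start-site rule. Scripts ran under Python 3.11.15 (SciPy 1.17.1, matplotlib 3.10.9, numpy 2.4.6, pandas 2.3.3).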

Additional observations from a re-analysis of the deposited data

How the results depend on the processing

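No paired analysis was possible because there was a single library per group. The count of 4 of the 10 genes with a peak was 3 with windows of 5 or 10 kb, where BBC3 dropped out, and 4 in the other settings of window, threshold, overlap and background. It was 1 when a summit had to lie within 1 kb of a start of the gene, a rule added, like the background limit, after seeing the data. The wider count of 11 of 61 was 8 within 5 kb, 10 within 10 kb and 17 within 50 kb. It was 5 with the upper 50% of peaks by q and 6 with the upper 50% by fold. Under the background limit it was 10, and YWHAZ dropped out. By start sites it was 4 of the 44 genes with an entry. The share of all coding genes (10.8%) was 8.38% within 5 kb, 9.58% within 10 kb and 17.7% within 50 kb. It was 5.69% and 6.17% with the upper 50% by q and by fold, 10.4% under the background limit and 6.41% by start sites. Narrower rules or fewer peaks lower these by construction. The strongest peak of BCL2L1, BBC3, BAD and BID was the same by q and by fold. Pileups of 18 to 72 fragments limit how finely the 6 peaks can be ranked.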
